A study of Mus musculus with 2 samples.

Results

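Cadherins and protocadherins are cell adhesion proteins that hold neighboring cells together through calcium-dependent contacts outside the cell, and the hippocampal synapse is one of the places where they act. Classical cadherins bind partners of their own kind across the cleft and are tied to actin by catenins, whereas the clustered protocadherins are used in different combinations from neuron to neuron and serve as a surface identity for neurites of the same cell. The genes were chosen by name, as all protein-coding genes of the RefSeq annotation of GRCm38 whose symbol starts with Cdh and a digit or with Pcdh. This gave 92 of 21887 protein-coding genes. Of them, 35 stand at single loci, namely 23 cadherins and 12 protocadherins, and 57 lie in the 3 protocadherin clusters, with 14 Pcdha, 22 Pcdhb, and 21 Pcdhg genes.

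Cleavage Under Targets and Tagmentation (Cut&Tag) uses an antibody on chromatin to direct a Tn5 transposase, so that sequenced fragments gather where the antibody sat. Nuclei of mouse hippocampus were stained with rabbit anti-Smad4 in 1 library and with a control IgG in 1 library, in a study that looked for genes bound by Smad4, the common partner of the Smads in TGF-β and BMP signaling. A single list of 5326 peaks was analyzed here. It is filed under the IgG library and carries no antibody in its name, so its peaks are given below as positions in a hippocampal Cut&Tag list and are credited to neither antibody. The strain, genotype, age, and number of animals behind these 2 libraries are not given in the sources used here. Without a replicate or a second list, no difference between samples could be tested, and the intervals below cover counting error within 1 list. A peak list holds no expression values. Of 13 marker genes of glia, vessels, and choroid plexus, 1 (7.69%), Mbp, had a peak in or within 3 kb, against 13.0% of all protein-coding genes, and the peaks do not serve as a check of the tissue.

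Among the single-locus genes, 12 of 35 had a peak that overlapped the gene or lay within 3 kb of it (34.3%, 95% exact binomial interval 19.1% to 52.2%), and over all protein-coding genes the share was 13.0%. They were the cadherins Cdh4, Cdh5, Cdh11, Cdh12, Cdh13, Cdh20, and Cdh23 and the protocadherins Pcdh1, Pcdh7, Pcdh9, Pcdh15, and Pcdh17. Together they held 20 distinct peaks, of which 7 were at Cdh13. Cdh23 and Pcdh7 had 2 peaks each, and the other 9 genes had 1 each. The single-locus genes were long, with a median of 123 kb against 17.2 kb for all protein-coding genes. The 12 with a peak had a median length of 405 kb, and the 23 without one had a median of 66.9 kb.

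**Figure D1:**
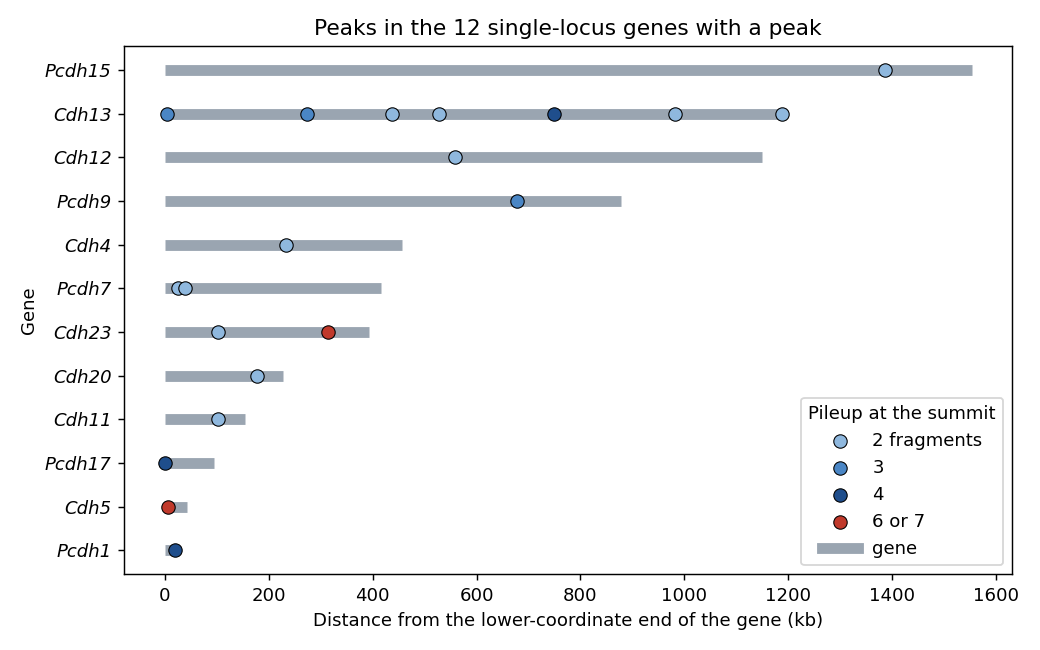
Each gray bar is 1 of the 12 single-locus genes with a peak, drawn to scale in kb from its lower-coordinate end, and each point is the summit of a peak, colored by the number of fragments that overlap there. The 7 points of Cdh13 spread over the whole gene, and the points with the most fragments lie in Cdh23 and Cdh5.

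When the genes were compared within classes of length, the single-locus genes lay near the background of their class. Of the 10 genes of 300 kb or longer, 7 had a peak (70%, 95% exact binomial interval 34.8% to 93.3%), and 62.3% of all protein-coding genes of that length did. In the class of 100 to 300 kb, 2 of 9 had a peak (22.2%, 2.81% to 60.01%) against 36.3% of all genes. At 30 to 100 kb, it was 2 of 8 (25%, 3.19% to 65.1%) against 17.6%, and below 30 kb it was 1 of 8 (12.5%, 0.316% to 52.7%) against 6.37%. All 4 intervals include the share of all genes of the same class, so no excess over gene length was detectable with this number of genes. Across the 35 genes, Pearson's r between length and number of peaks was 0.52 and Spearman's rho was 0.50, and without Cdh13 they were 0.38 and 0.45. These points are genes of 1 library and are not replicates.

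**Figure D2:**
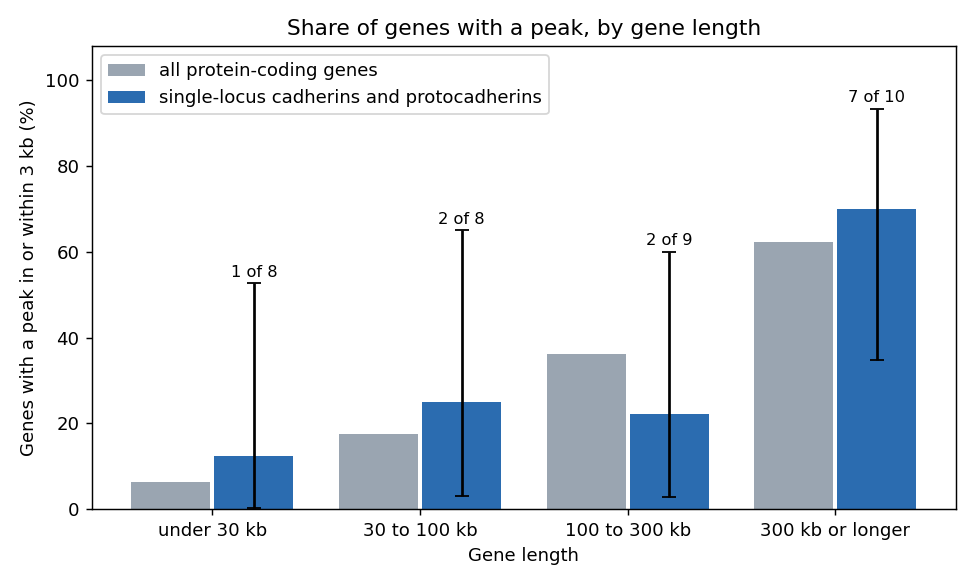
Bars give the percentage of genes with a peak in or within 3 kb, by length of the gene, for all protein-coding genes (gray) and for the 35 single-locus genes (blue), with 95% exact binomial intervals on the blue bars and the counts above them. The gray bars rise with length to 62.3%, and the blue bars stand at 12.5%, 25%, 22.2%, and 70%.

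The density of peaks gave the same picture. The single-locus genes with their 3 kb flanks covered 10.3 Mb and held 1.94 peaks per Mb (95% exact Poisson interval 1.19 to 3.002), against 2.79 peaks per Mb over all protein-coding genes and 1.92 over those of 300 kb or longer. Without Cdh13, the single-locus genes held 13 peaks at 1.43 per Mb (0.761 to 2.44), an interval below the 2.79 of all protein-coding genes. At 300 kb or longer, the single-locus genes held 1.87 per Mb (1.04 to 3.08) against 1.92, and 1.17 (0.504 to 2.30) without Cdh13. Under 300 kb, they held 2.22 per Mb (0.721 to 5.18) against 3.14 for all protein-coding genes of that length. By name, the density was 2.18 per Mb (1.19 to 3.66) for the 23 cadherins and 1.55 per Mb (0.569 to 3.38) for the 12 protocadherins, and these intervals overlap.

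Cdh13 encodes T-cadherin, an unusual cadherin that lacks the transmembrane and cytoplasmic parts and is held in the membrane by a lipid anchor. The gene spans chromosome 8 from 118140017 to 119324929 (GRCm38), or 1.18 Mb, and its 7 peaks were the most of any member. Of these, 6 lay inside the gene. The first lay 4.12 kb inside the lower-coordinate end. Its pileup was 3, the pileup being the number of fragments that overlap at the summit. Its fold enrichment was 3.57, the ratio of pileup to background with the same constant added to both, as for every fold value below. The second, 273 kb from that end, was enriched 3.77-fold, also on 3 fragments. The strongest, at 118889616 to 118890187, lay 435 kb from the higher-coordinate end. Its pileup was 4, its fold enrichment 4.63, and its −log10 q 3.60. It ranked 861 of 5326 by q-value. The remaining 3 inner peaks, at 437, 529, and 982 kb from the lower-coordinate end, each had a fold enrichment of 2.83 and a pileup of 2, the lowest pileup in the list. The last lay outside the gene, 2.48 kb beyond its higher-coordinate end, with a pileup of 2. The density in Cdh13 was 5.88 peaks per Mb (95% exact Poisson interval 2.36 to 12.1), and the lower bound is above the 1.92 per Mb of all genes of 300 kb or longer. Cdh13 was singled out as the highest of 10 long genes after its value was seen, and this was not tested.

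Of the other 9 long members, 3 had a density above 1.92 per Mb, namely Cdh23 (5.003 per Mb, 95% exact Poisson interval 0.606 to 18.1), Pcdh7 (4.73 per Mb, 0.572 to 17.1), and Cdh4 (2.16 per Mb, 0.0547 to 12.0), and 6 had a density below it. Pcdh9 had 1 peak in 879 kb (1.13 per Mb, 0.0286 to 6.29). Cdh12, a type II cadherin of the brain that spans 1.15 Mb, had 1 peak (0.865 per Mb, 0.0219 to 4.82), and Pcdh15, which forms the tip links of inner ear hair cells together with Cdh23, had 1 in 1.55 Mb (0.641 per Mb, 0.0162 to 3.57). No peak was found in Cdh18 (0.929 Mb), Pcdh11x (620 kb), or Cdh8 (393 kb). For a count of 0, the upper bound of the same interval was 3.95 peaks per Mb in Cdh18, 5.89 in Pcdh11x, and 9.24 in Cdh8. The interval of Cdh13 therefore overlaps those of the other 9 long genes, and these data cannot order the genes beyond that.

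**Figure D3:**
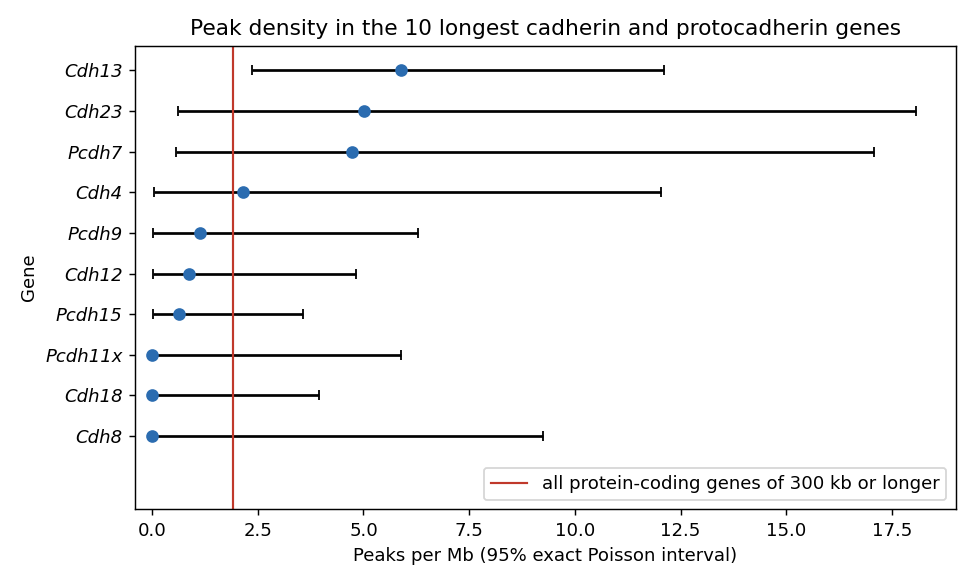
Points give peaks per Mb of gene and 3 kb flanks for the 10 single-locus genes of 300 kb or longer, bars give 95% exact Poisson intervals, and the red line marks the 1.92 peaks per Mb of all protein-coding genes of that length. Cdh13 has an interval wholly above the line, and the intervals of the other 9 genes cross it.

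Cdh23 and Cdh5 held the peaks with the most fragments. Cdh23, which spans 394 kb on chromosome 10, encodes the large cadherin of the tip link. Its main peak, at 60617516 to 60617829, had a pileup of 7 and a fold enrichment of 6.77. Its −log10 q was 6.14, the highest of any member, and it ranked 306 of 5326. It lay 78.7 kb downstream of the RefSeq start of Cdh23. Its second peak, at 60405820 to 60406081, had a pileup of 2 and also lies in Vsir, a gene inside Cdh23 that encodes an immune checkpoint protein, and 2.26 kb from Gm17455, so it cannot be given to Cdh23 alone. Cdh5 encodes VE-cadherin, the cadherin of endothelial junctions. Its single peak, on chromosome 8 at 104107888 to 104108112, lay 6.28 kb inside the lower-coordinate end of the 42.9 kb gene. It was enriched 5.87-fold on 6 fragments (−log10 q 4.67) and ranked 544. The start of the lncRNA gene Gm29682, on the minus strand, lay 2.02 kb from this peak. Only these 2 members held a peak with a fold enrichment of at least 5. Such peaks numbered 2 of the 20 at single-locus genes and 912 of 5326 in the whole list.

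Among the other classical cadherins, each peak was weak. Cdh4, or R-cadherin, was the only type I cadherin of 5 with a peak, which had a pileup of 2 and lay 223 kb from the nearer end of the gene. Of the 13 type II cadherins, Cdh5, Cdh11, Cdh12, and Cdh20 had 1 peak each. The median length was 66.9 kb for the type I genes and 153 kb for the type II genes. Of all protein-coding genes, 17.6% of those of 30 to 100 kb and 36.3% of those of 100 to 300 kb had a peak. The peak of Cdh11 lay 50.9 kb from an end, that of Cdh20 lay 176 kb downstream of its RefSeq start, and both had a pileup of 2. The peak of Cdh12 also had a pileup of 2 and lay 103 kb upstream of the start that the promoter table gives, inside the longer gene interval of the annotation. Together, the type II genes held 4 peaks in 3.83 Mb (1.04 per Mb, 0.284 to 2.67).

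The protocadherins at single loci are grouped as δ1 and δ2 by their cytoplasmic parts. Of the 4 δ1 genes, Pcdh1, Pcdh7, and Pcdh9 had a peak. The median length of the 4 genes was 519 kb, and 62.3% of all protein-coding genes of 300 kb or longer had a peak. The peak of Pcdh9 lay 199 kb downstream of a RefSeq start and was enriched 3.77-fold on 3 fragments (−log10 q 2.55). The 2 peaks of Pcdh7 lay 23.6 and 37.3 kb downstream of its start, 13.6 kb apart, and both had a pileup of 2. In Pcdh1, a short gene of 26.1 kb, the peak lay 6.16 kb from the higher-coordinate end and was enriched 4.30-fold on 4 fragments (−log10 q 2.48). Pcdh11x, the remaining δ1 gene, had none.

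Most of these peaks were far from the ends of the genes. Of the 20 single-locus peaks, 10 lay more than 100 kb inside a gene, 5 lay 10 to 100 kb inside, and 3 lay 3 to 10 kb inside. The other 2 lay within 3 kb of an end, at Pcdh17 and Cdh13, so that 2 of 35 genes had such a peak, and over all protein-coding genes the share was 5.30%. Strand and start were tabulated for 22 of the 35 genes. Of these, Pcdh17 alone had a peak within 3 kb of its start, and over all protein-coding genes with a tabulated start the share was 3.91%.

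Pcdh17 belongs to the δ2 protocadherins and takes part in the assembly of presynaptic terminals. It was the only member of 5 in its group with a peak. The median length of that group was 56.2 kb, and 17.6% of all protein-coding genes of 30 to 100 kb had a peak. The peak lay on chromosome 14 at 84442784 to 84443414, with its end 149 bp upstream of the start of Pcdh17, and was enriched 4.23-fold on 4 fragments (−log10 q 2.25). At 631 bp, it was the widest of the 20 single-locus peaks. It also covered 84443404, the start of Gm32498, an lncRNA gene on the opposite strand, so the fragments cannot be assigned to one of the pair. The δ2 relatives Pcdh8, Pcdh10, Pcdh18, and Pcdh19 had no peak in or within 3 kb. The nearest peak was 113 kb from Pcdh19, 376 kb from Pcdh8, 488 kb from Pcdh10, and 1099 kb from Pcdh18.

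The 250 bases before the start are shown for Pcdh17, whose promoter the peak reaches, and for Pcdh10 and Pcdh19, which have none. They were taken from RefSeq (GRCm38.p6) and run 5′ to 3′ toward the gene. Capitals mark GTCT or its reverse complement AGAC, the short core that Smad proteins recognize. The windows are chr14:84443313-84443562 on the plus strand, chr3:45378148-45378397 on the plus strand, and chrX:133688994-133689243 on the minus strand. The peak covers the first 102 bases of the Pcdh17 window.
Pcdh17: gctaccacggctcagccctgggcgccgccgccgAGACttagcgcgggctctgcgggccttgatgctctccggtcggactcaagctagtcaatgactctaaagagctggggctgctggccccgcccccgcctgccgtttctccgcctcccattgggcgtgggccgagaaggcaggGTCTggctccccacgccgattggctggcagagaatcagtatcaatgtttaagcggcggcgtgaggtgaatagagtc
Pcdh10: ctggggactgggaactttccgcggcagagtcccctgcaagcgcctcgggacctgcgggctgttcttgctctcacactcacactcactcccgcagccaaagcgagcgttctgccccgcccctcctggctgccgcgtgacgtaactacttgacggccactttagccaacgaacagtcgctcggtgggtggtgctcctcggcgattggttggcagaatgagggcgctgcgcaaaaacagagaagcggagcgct
Pcdh19: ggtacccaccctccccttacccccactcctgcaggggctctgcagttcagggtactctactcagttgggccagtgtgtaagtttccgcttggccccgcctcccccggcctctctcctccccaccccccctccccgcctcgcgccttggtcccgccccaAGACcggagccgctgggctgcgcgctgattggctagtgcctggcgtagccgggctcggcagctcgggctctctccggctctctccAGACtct

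The Pcdh17 window held 2 copies of the core, an AGAC that starts 217 bases before the start of the gene, under the peak, and a GTCT that starts 76 bases before it, outside the peak. It also held GGCGCC, a longer GC-rich element bound by Smads, which starts 230 bases before the gene and lies under the peak. This element was found in 1 of 25 member windows and in 9.59% of the 32851 windows of the table, searched on both strands as it is its own complement. Pcdh19 had 2 copies of AGAC, at 92 and 7 bases before the start, and Pcdh10 had no copy of GTCT or AGAC. The core is short and common. It was in 24 of 25 member windows (96%) and in 82.9% of all windows, with a median of 2 copies in both. The palindrome GTCTAGAC, which holds GTCT and AGAC, was in none of the member windows and in 0.167% of all. The E-box CACCTG (or CAGGTG), through which Snail and Zeb proteins repress cadherins, was in 3 member windows (12%) and in 17.2% of all. The 25 member windows belong to 22 genes, and those with the E-box were windows of Cdh7 and Pcdh15 only. Cdh1 had no tabulated window. The median GC content was 58.4% in the member windows and 52.4% in all, and 64.8% in Pcdh17. A match of letters is a description of the window and does not mark a bound site.

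No peak was found for 23 single-locus genes, 16 cadherins and 7 protocadherins. They include Cdh2, or N-cadherin, the main classical cadherin of excitatory synapses, whose nearest peak was 769 kb away, and Cdh1 and Cdh3, the E- and P-cadherins of epithelia, with a nearest peak at 240 and 236 kb. Cdh9, which acts at the mossy fiber synapse of the hippocampus, was 593 kb from a peak, Cdh8 was 695 kb away, and Cdh10 was 374 kb away. The other cadherins without a peak were Cdh6, Cdh7, Cdh15, Cdh16, Cdh17, Cdh18, Cdh19, Cdh22, Cdh24, and Cdh26, and besides those named above, Pcdh12 and Pcdh20 had none. Over the 23 genes, the nearest peak was 3.47 to 1099 kb away, with a median of 236 kb, and 5 genes had one within 25 kb. Cdh26, at 3.47 kb, was the gene just outside the 3 kb window, and Pcdh17, with its peak 149 bp outside the gene, was the one gene that had a peak only through the window. Genes of this size give weak limits. For Cdh2, a count of 0 in 220 kb has a 95% exact Poisson upper bound of 16.3 peaks per Mb.

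Several members stand next to each other in stretches with few other genes. The stretch from Cdh6 to Cdh18 on chromosome 15 holds 5 type II cadherins and 7 protein-coding genes in all. It had 10 peaks in 10.4 Mb, 1 of them in a member, or 0.957 per Mb (95% exact Poisson interval 0.459 to 1.76), against 2.17 per Mb over the annotated length of that chromosome. From Pcdh8 to Pcdh9 on chromosome 14, a stretch of 14.1 Mb with 7 protein-coding genes, there were 13 peaks, or 0.920 per Mb (0.490 to 1.57), against 1.66 per Mb for the chromosome. In 2 stretches with more genes, from Cdh8 to Cdh1 on chromosome 8 (86 genes) and from Cdh20 to Cdh19 on chromosome 1 (24 genes), the density was 1.83 (1.001 to 3.07) and 1.61 per Mb (0.772 to 2.96), with chromosome values of 2.17 and 1.74. The stretches were chosen after the positions were seen, and the part of gene number or of mappable sequence in these densities was not tested.

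The fragments behind the single-locus peaks were few, as in the whole list. The pileup was 2 in 12 of 20 peaks (60%), 3 in 3, 4 in 3, and 5 or more in 2, and in the whole list it was 2 in 53.4% of peaks and 5 or more in 19.2%. The median fold enrichment was 2.88 and the median −log10 q was 1.57, the same values as over all peaks. Because pileups are whole numbers, the 20 peaks had only 10 different pairs of fold enrichment and −log10 q, and 7 peaks shared one pair. The width ranged from 196 to 631 bp, with a median of 284 bp against 287 bp in the whole list. Peaks with a q-value of at most 0.01 were found in 6 of the 35 genes, Cdh5, Cdh13, Cdh23, Pcdh1, Pcdh9, and Pcdh17, and in 6.32% of all protein-coding genes. At 300 kb or longer, 3 of 10 members and 183 of all 557 genes had such a peak. Under 300 kb, 3 of 25 members and 1200 of all 21330 genes did. The members under 300 kb had a median length of 59.7 kb, against 16.4 kb for all genes under 300 kb.

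**Figure D4:**
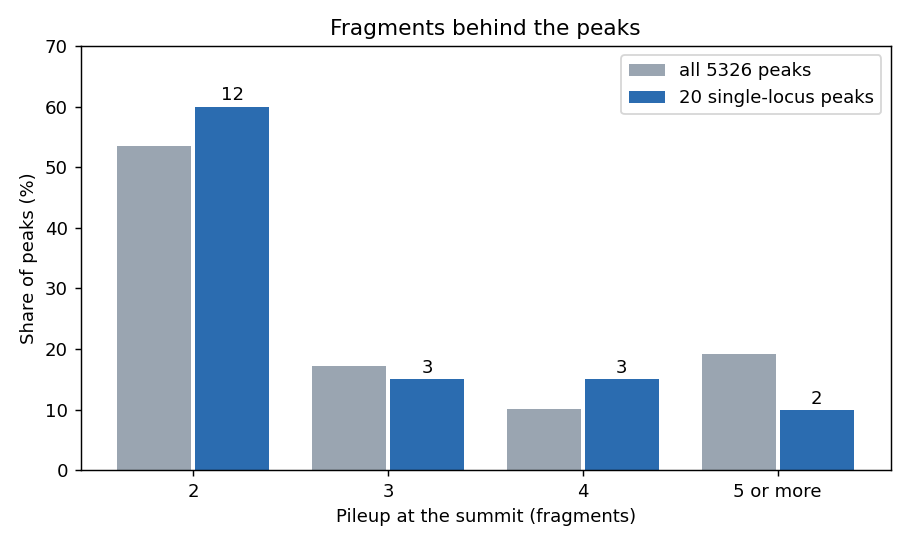
Bars give the share of peaks by pileup, the number of fragments overlapping at the summit, for all 5326 peaks (gray) and the 20 single-locus peaks (blue, with counts above). A pileup of 2 is the most frequent in both, at 53.4% and 60%.

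The clustered protocadherins lie side by side on chromosome 18 from 36930285 to 37841873, a locus of 912 kb. In the Pcdha and Pcdhg clusters, each gene has a first exon of its own that is spliced to last exons shared by the cluster, so the gene intervals run to a common end and overlap, whereas each Pcdhb gene is a short gene of its own. The locus held 1 peak, at 37806641 to 37807018, enriched 3.77-fold on 3 fragments (−log10 q 2.55) and 378 bp wide. By rule it fell in 19 of 57 clustered genes, all of them Pcdhg genes, because their intervals run over it. This is 1 peak counted 19 times, and the share of genes cannot be read against the background of 13.0%.

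The peak started 231 bp inside the lower-coordinate end of Pcdhgc3, the first of the C-type genes of the γ cluster, which neurons use more evenly than the variable genes before them. No other clustered gene had an end within 3 kb of it. Among the other clustered genes, the closest lower-coordinate ends were those of Pcdhga12, 41.1 kb below the peak, and Pcdhgc4, 8.06 kb above it. Pcdhgc4 and Pcdhgc5 were the 2 Pcdhg genes without a peak. The annotation also has 3 protein-coding genes, Gm37013, Gm38666, and Gm38667, that run from the Pcdha cluster to the end of the Pcdhg cluster, and the pseudogene Pcdhgb8, all of which hold this peak too. The start sites of the clustered genes were not used here, since no strand or start was tabulated for them.

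No peak lay in or within 3 kb of any of the 14 Pcdha or 22 Pcdhb genes. They fall in a stretch of 1005 kb between 2 neighboring peaks, from 36801908 to 37806641, that begins 128 kb below Pcdha1 and ends at Pcdhgc3. Stretches at least as long made up 12.9% of the 5305 gaps between neighboring peaks in the list and 26 of 161 on chromosome 18, with a median gap of 267 kb. The absence of peaks over 36 genes was thus 1 event in the list. A count of 0 in the 265 kb covered by the Pcdha genes has a 95% exact Poisson upper bound of 13.9 peaks per Mb, above the 2.79 per Mb of all protein-coding genes, so a lower density was not detectable. Above the locus, the next peak was 303 kb beyond the end of Pcdhgc5.

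**Figure D5:**
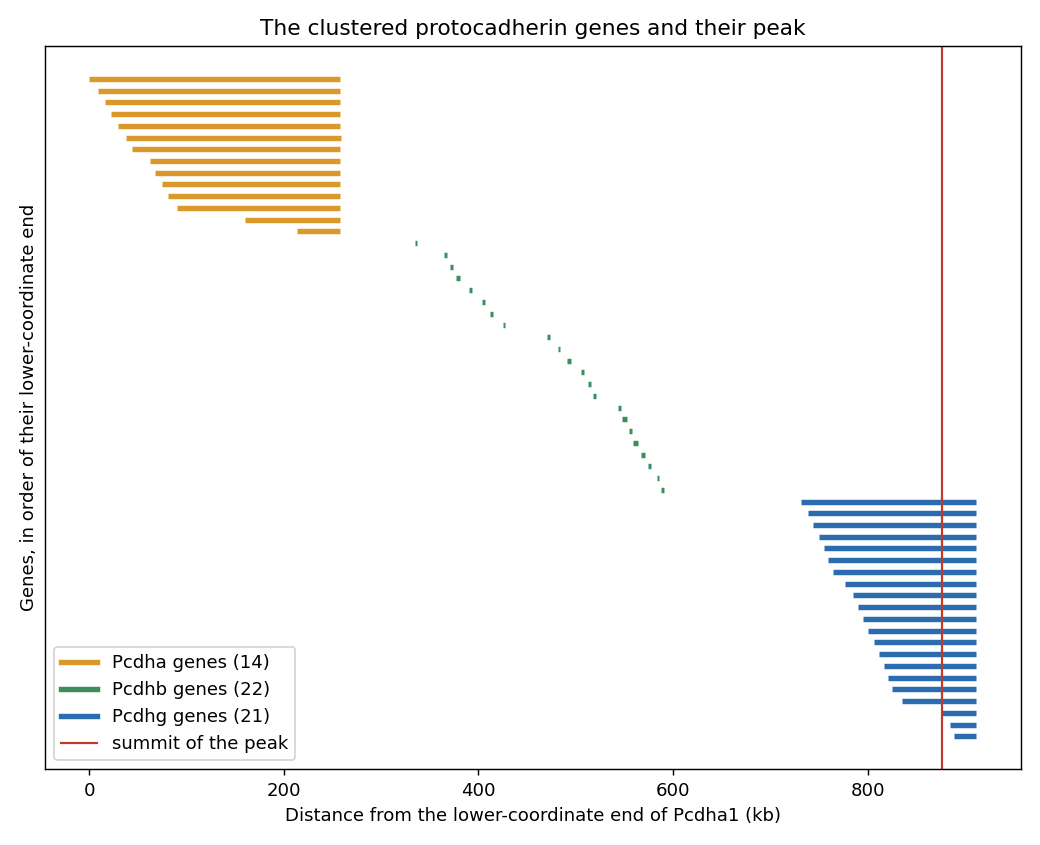
Each bar is 1 of the 57 clustered protocadherin genes, drawn to scale in kb from the lower-coordinate end of Pcdha1, and the red line is the summit of the 1 peak of the locus. The line crosses 19 of the 21 Pcdhg bars, at the beginning of the third bar from the bottom, Pcdhgc3, and no Pcdha or Pcdhb bar.

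Genes that work with cadherins were examined from a list of 81, all of which matched a symbol. A peak lay in or within 3 kb of 27 (33.3%), against 13.0% of all protein-coding genes. The median length of the listed genes was 55.1 kb, and 17.6% of all genes of 30 to 100 kb had a peak. The list also holds much longer genes, such as Ctnna3 (1.57 Mb), Magi2 (1485 kb), and Ctnna2 (1098 kb). Of all genes of 300 kb or longer, 62.3% had a peak. The list was not compared within classes of length, so an excess over gene length was not tested. Within 3 kb of an end, 9 of 81 had a peak, against 5.30% of all protein-coding genes. Among 21 catenins and other junction proteins, which link cadherins to actin or build the junction, 9 had a peak. Of these, Ctnna3, an α-catenin gene of 1.57 Mb, had 3, and the strongest, with a fold enrichment of 4.38 and a pileup of 4, covered its RefSeq start. Ctnna2, the neuronal α-catenin, had 3 peaks with a pileup of 2 or 3, all at least 85.6 kb from an end. Peaks near an end were also found at Pkp4, 2.30 kb away, and at Nectin2, 0.933 kb away, with pileups of 3 and 5. Both were at the end away from the RefSeq start, 190397 bp downstream of it in Pkp4 and 33862 bp in Nectin2. Of 27 other members of the cadherin superfamily, such as the Fat, Celsr, and desmosomal genes, 6 had a peak. Those near an end were at Clstn1 and Cdhr5, with pileups of 2 and 3. The Clstn1 peak lay 62624 bp downstream of the RefSeq start, and the Cdhr5 peak lay 493 bp upstream of it. The highest fold enrichments of this group were at the 2 peaks of Celsr1, 5.40 and 4.63, with pileups of 5 and 4. They lay 17.2 and 37.2 kb from an end.

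The smaller lists below stand against the same 13.0% of all protein-coding genes and were not compared within classes of length. Of 11 regulators of the clustered protocadherins, which include Ctcf and the cohesin genes, 4 had a peak. They were Stag1, Wapl, Smc1a, and Rad21, and only that of Rad21, a cohesin subunit, was near an end, at 1.59 kb with a pileup of 4. Among 12 genes that signal below the protocadherins, such as the kinases Ptk2 and Ptk2b, 5 had a peak and none had one near an end. The median length of these 12 genes was 95.4 kb. Of all genes, 17.6% of those of 30 to 100 kb and 36.3% of those of 100 to 300 kb had a peak. Of 5 repressors of Cdh1, Snai2 and Zeb1 had a peak, each with a pileup of 2 and near an end. That of Snai2 covered an end of the gene, and that of Zeb1 lay 2.53 kb inside an end. Among 5 proteases that cut cadherins, Psen2, a presenilin of the γ-secretase, had 2 peaks with pileups of 6 and 8, the first 1.67 kb outside the gene and the second 3496 bp downstream of its RefSeq start. The pileup of 8 was higher than that of any peak at a cadherin or protocadherin gene. The fold enrichment of that Psen2 peak (6.23) and its −log10 q (4.70) were below those of the main Cdh23 peak (6.77 and 6.14).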

How the data were processed

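Per the labels, the authors mapped the reads with BWA to mm10, that is GRCm38, and called peaks with MACS2; the paper gives unique mapping and a cutoff of 0.05. Versions, duplicates, and the control used are not given in the sources used here. The deposited values of a peak are a score, a fold enrichment (ratio), and −log10 p and q. Pileups were recovered from the fold enrichment and −log10 p under a Poisson background, with the script tested on simulated data. Peaks were matched to RefSeq gene intervals with a 3 kb window, starts counted from 1, and peaks shared by overlapping genes counted once. Strand and start came from the RefSeq promoter table. No test between samples was possible. A share is given with a 95% exact binomial (Clopper-Pearson) interval and a density with an exact Poisson interval. These cover counting error only, and the number of reads per library is unknown.

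Named are all single-locus genes with a peak, clustered genes with a peak near an end, and partner genes with one near an end or with 3 or more peaks. Members without a peak are given by count and name. Further partner genes are given by count and only some by name, with some values chosen after they were seen. The result for a list of neuronal markers is not reported here. The members and lists were chosen with earlier results of these data known. Alternatives were stricter q-values (0.01 and 0.001), a fold enrichment of at least 5, a pileup of at least 3, windows of 0, 1000, and 10000 bp, summits, the nearest gene, and unshared peaks. Python 3.11.15, NumPy 2.4.6, pandas 2.3.3, SciPy 1.17.1, and Matplotlib 3.10.9 were used.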

Additional observations from a re-analysis of the deposited data

How the results depend on the processing

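No paired analysis was possible because only 1 list, without replicates, was analyzed. Of the single-locus peaks, 60% rest on 2 fragments, the lowest pileup in the list. Fewer peaks were used under the stricter thresholds by their construction. The number of single-locus genes with a peak was 12, and it was 6 with a q-value of at most 0.01, 3 with at most 0.001, 6 when at least 3 fragments were required, and 2 with a fold enrichment of at least 5. In the same order, the single-locus peaks per Mb fell from 1.94 to 0.680, 0.292, 0.778, and 0.194, and the partner genes with a peak fell from 27 to 10, 2, 14, and 2. The single-locus genes with a peak near an end numbered 2, and 1, 0, 1, and 0 under these thresholds. They numbered 0 with a window of 0 bp, 1 with 1000 bp, and 6 with 10000 bp, since the window sets what is near, and 1 when Cdh13 was left out, an alternative chosen after seeing the data. The clustered genes with a peak numbered 19, and 0 with a q-value of at most 0.001, 0 with a fold enrichment of at least 5, 1 when each peak was given to its nearest protein-coding gene, and 0 without peaks shared with a protein-coding gene outside the family, because the single peak was then removed or counted once. Every other combination run left these 5 values within 1.5 times of the main count or, for the density, within its interval.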
